A study of Mus musculus with 6 samples.

Results

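Keratins were examined in the lenses of newborn mice (postnatal day 0) as a check on surface ectoderm and corneal character. The set was every gene whose probe set carries a single keratin symbol (Krt, a number and at most 1 letter; keratin-associated proteins excluded), with the brightest probe set (by mean over the arrays) standing for each gene. It held 40 genes, measured by 49 probe sets, of 12393 genes and 22626 probe sets in all. The design set 3 arrays of Le-AP-2alpha conditional mutants against 3 of wild-type littermates. The gene targeted in the mutants is Tfap2a (Tcfap2a in the labels), which encodes the transcription factor AP-2alpha. The labels do not spell out Le; in mouse eye genetics Le-Cre is a transgene driven by a Pax6 regulatory region that is active in the head surface ectoderm, from which lens, corneal and eyelid epithelium all derive. They give neither the strain, nor the alleles of the littermates, nor whether animals were pooled; p-values therefore reflect only how far these samples spread, which may be technical.

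Keratins are the intermediate filament proteins of epithelia. A filament forms only from a pair, 1 acidic type I and 1 basic type II chain, and the pair in use marks the epithelium: Krt8 with Krt18 in simple epithelia, Krt5 with Krt14 in the basal layer of stratified epithelia, Krt1 with Krt10 in the upper layers of epidermis, Krt4 with Krt13 in mucosa such as conjunctiva, and Krt12 in corneal epithelium. Lens cells instead build their filaments mainly from vimentin and, in fibres, from the beaded filament proteins Bfsp1 and Bfsp2. AP-2 proteins are known regulators of keratin genes in skin.

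All values are log2 of the deposited array intensity. The median probe set had a mean of 5.26 over the 6 arrays, and a gene below it is called dim here. Brightness depends on the probes as well as on the RNA, so genes are not ranked against each other by amount. Wild-type replicate 1 stood apart, correlating at 0.926 to 0.945 with the rest, while the other 5 arrays correlated with each other at 0.974 to 0.985. The lens markers fixed for the check were bright: Cryaa, an alpha crystallin, had a mutant mean of 13.68 and a wild-type mean of 13.73, and all 4 measured fibre markers were above the median probe set. Of 5 genes listed as lens epithelium markers 4 were, with Foxe3 dim in both groups. The lens markers were not all alike between genotypes. Of the 5 genes listed for epithelium, 4 (Cdh1, Foxe3, Prox1 and Cryab) had lower and 1 (Pax6) higher means in mutants. Every mutant array was below every wild-type array for Cdh1 (-1.29 ± 0.30, SE), Foxe3 (-0.71 ± 0.29) and the fibre marker Bfsp1 (-0.65 ± 0.22). The limma adjusted p was 0.999 for each, and 4.58% of all genes were apart in that direction. Tfap2a had higher means in mutants on all 3 of its probe sets. The brightest was at 9.57, 9.64 and 9.83 against 8.36, 9.26 and 9.56, and the differences were 0.62 ± 0.33, 0.36 ± 0.36 and 1.57 ± 0.49 (SE), each with a limma adjusted p of 0.999; the deleted segment is not named in the labels, so this does not check the deletion. The number of arrays limits the precision of every value below.

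Keratin signal was low in lenses of both genotypes. Of the 40 genes, 1 (Krt10) had a mean above the median probe set (2.5%), where 55.4% of all genes did, and 27 of the 40 lay in the lowest 25% of probe sets. The median keratin level was 3.08, against 5.83 over all genes. Apart from Krt10, Krt18 and Krt1, no keratin exceeded 4.65 on any array. In dim probe sets a real difference can be compressed, and a gene that is off cannot be told from one that is weakly expressed, since the deposited table carries no detection calls. In bulk lens RNA, moreover, fewer cells of a type and less RNA per cell cannot be told apart.

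**Figure D1:**
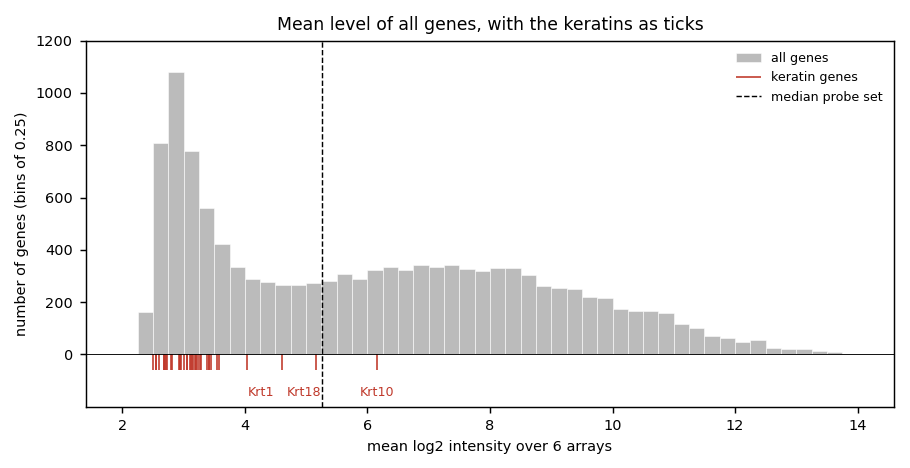
Histogram of the mean log2 intensity over 6 arrays of 12393 genes (bins of 0.25 on the horizontal axis, number of genes on the vertical axis), with each of the 40 keratins as a red tick below the axis and the median probe set (5.26) as a dashed line. The keratin ticks crowd the dim end, and Krt10 alone lies to the right of the line.

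No keratin passed the test between genotypes. limma called 0 of the 40 at an adjusted p under 0.05, as it called 0 of all 22626 probe sets (0.0% called), and the adjusted p of each keratin was 0.999. At an unadjusted p under 0.05 there was 1 keratin (Krt16), where 3.85% of all genes reached that level. Values were higher in mutants for 21 keratins and lower for 19, with a median log2 difference (mutant minus wild type) of 0.02; over all genes 47.8% were higher and the median was -0.01. With each array centred on its median the keratin split became 16 higher of 40 and the median -0.04; this scaling moves every gene by the same amount. Single differences ran from -0.46 (Krt16) to 0.64 (Krt18), and their median size was 0.12, against 0.20 over all genes. The 95% interval of the difference lay within 1 log2 unit on both sides of 0 for 36 of the 40 keratins. The exceptions were Krt10, Krt18, Krt1 and Krt25, and Krt10, Krt18 and Krt1 were also the brightest keratins. For the dim keratins, where a real difference can be compressed, a narrow interval does not bound the change in RNA.

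The arrays of the genotypes did not overlap for 3 keratins, Krt16, Krt35 and Krt81, each lower in mutants. That is 3 of 40, or 7.5%, where 8.8% of all genes were apart in either direction and 4.58% with mutants lower. The keratin share is thus near the background. All 3 genes were in the lowest 25% of probe sets, at values of 2.54 to 3.36.

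**Figure D2:**
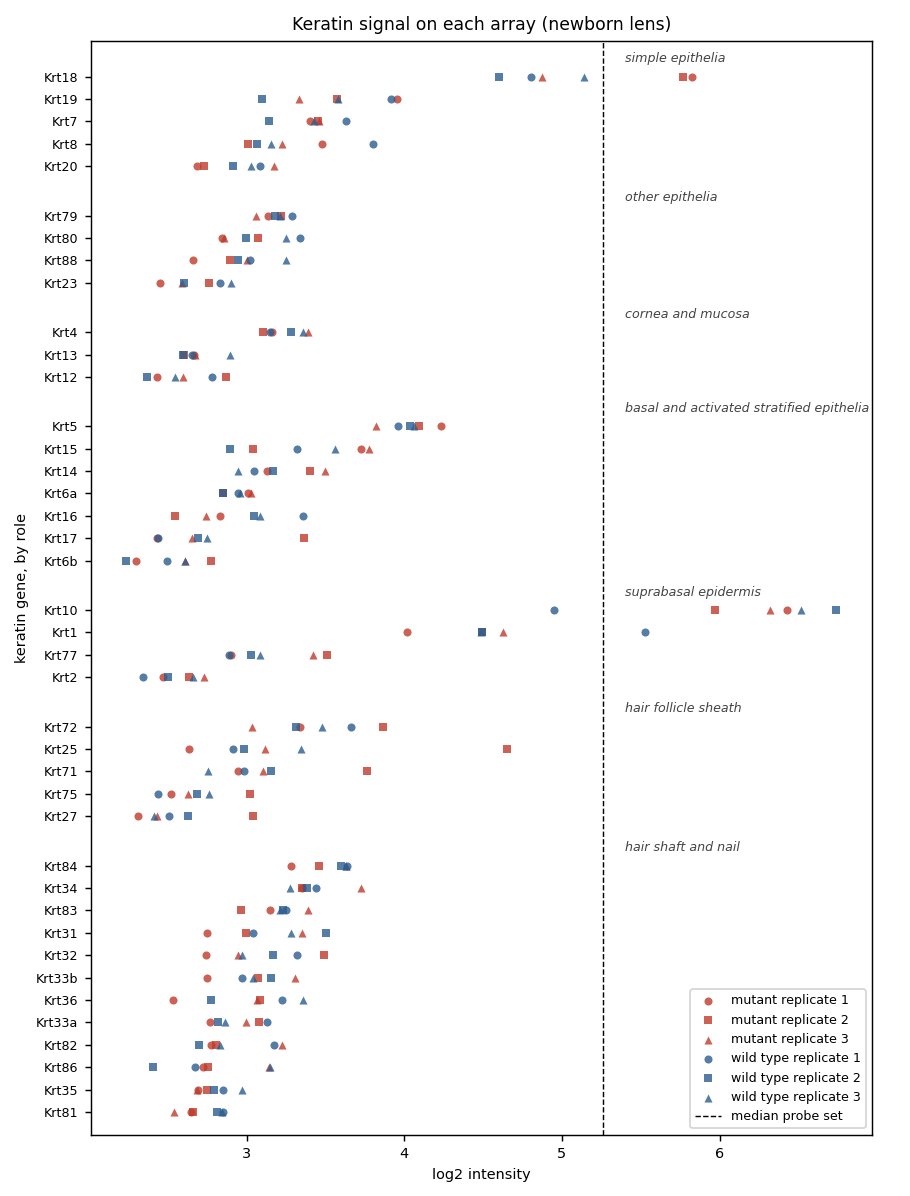
log2 intensity (horizontal axis) of each of the 40 keratins (rows, grouped by role) on each array, mutants in red and wild types in blue, with a marker shape per replicate number and the median probe set as a dashed line. Krt10 lies above the line on 5 of 6 arrays, Krt18 on 2 mutant arrays and Krt1 on wild-type replicate 1, while the other 37 keratins are below it on every array.

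Among keratins of simple epithelia, Krt18 had the largest difference of the family. This type I chain, the usual partner of Krt8, was at 5.82, 5.77 and 4.87 in mutants and at 4.80, 4.60 and 5.14 in wild types. Mutant replicates 1 and 2 were above every wild type, whereas mutant replicate 3 fell among them, so the groups overlapped. The means were 5.49 ± 0.53 and 4.85 ± 0.27 (SD, n = 3), a log2 difference of 0.64 ± 0.31 (SE; 95% interval -0.11 to 1.39), or 1.56-fold, with a limma adjusted p of 0.999. Leaving out 1 array at a time gave differences of 0.47 to 0.95, the lowest without mutant replicate 1 and the highest without mutant replicate 3.

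Krt8, its type II partner, was dim on all of its probe sets. The brightest of 3 Krt8 probe sets was at 3.48, 3.01 and 3.22 in mutants and 3.80, 3.07 and 3.16 in wild types, a difference of -0.11 ± 0.26, and the others differed by 0.24 ± 0.22 and 0.05 ± 0.25. The contrast between the partners was not tested. Krt7, a type II keratin of ducts and glands, was at 3.40, 3.45 and 3.46 against 3.63, 3.14 and 3.43, and Krt19, a type I keratin of simple and mucosal epithelia, at 3.96, 3.58 and 3.33 against 3.92, 3.10 and 3.58. Their differences were 0.04 ± 0.19 and 0.09 ± 0.28, and the groups overlapped for both. Krt20, a keratin of gut and urothelium, differed by -0.14 ± 0.20.

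Since AP-2 proteins are known to bind sites of the form GCCNNNGGC, the promoters of the measured keratins were searched for these letters, which read the same on both strands. Of the 40 genes, 25 had an entry in the RefSeq promoter table (GRCm38.p6; 250 bases before to 50 after the start), and 3 of the 25 (12%) held the motif: Krt18, Krt7 and Krt72. Among all 27025 genes with an entry, 18.5% did. In the 250 bases before the start alone the counts were 2 of 25 (8%) and 15.4% of all genes. The promoters of Krt18 and Krt7, which hold the motif before the start, are shown with that of Krt10, the 1 keratin above the median probe set, which holds none; each run is the 250 bases before the start, 5′ to 3′ on the gene's strand, with motif matches in capitals.
Krt18 promoter, chr15:102027966-102028215, plus strand: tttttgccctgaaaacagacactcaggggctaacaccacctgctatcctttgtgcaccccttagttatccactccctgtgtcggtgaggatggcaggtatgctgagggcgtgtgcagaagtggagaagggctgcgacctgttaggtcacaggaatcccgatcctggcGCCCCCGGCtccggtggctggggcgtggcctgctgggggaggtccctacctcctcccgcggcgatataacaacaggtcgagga
Krt7 promoter, chr15:101412153-101412402, plus strand: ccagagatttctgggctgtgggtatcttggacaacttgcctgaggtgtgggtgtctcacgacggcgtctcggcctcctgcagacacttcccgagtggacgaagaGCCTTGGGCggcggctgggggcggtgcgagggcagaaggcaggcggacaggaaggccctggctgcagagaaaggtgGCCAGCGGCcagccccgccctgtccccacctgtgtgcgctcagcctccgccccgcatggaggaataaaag
Krt10 promoter, chr11:99389365-99389614, minus strand: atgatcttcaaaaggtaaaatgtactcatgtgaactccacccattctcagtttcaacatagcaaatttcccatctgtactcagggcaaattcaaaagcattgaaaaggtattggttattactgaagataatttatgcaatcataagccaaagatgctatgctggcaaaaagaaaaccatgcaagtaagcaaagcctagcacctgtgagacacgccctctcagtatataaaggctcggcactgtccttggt
The match in Krt18 began 83 bases before the start and those in Krt7 at 146 and 70 bases before it. Krt18, with 1 match, had the difference of 0.64 given above, and Krt7, with 2, one of 0.04. A match is only these letters in this window, not a bound site. The coordinates also show the usual layout of the family: of the keratins with an entry, 13 type I genes lie on chromosome 11 and all 11 type II genes on chromosome 15, and Krt18 is the 1 type I gene on chromosome 15.

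In the suprabasal pair of epidermis, 1 wild-type array lay far from the others. Krt10, the type I chain of differentiating epidermis, was at 6.43, 5.97 and 6.32 in mutants and at 4.95, 6.74 and 6.52 in wild types. Wild-type replicate 1 was the lowest array and the other wild types were the highest. The difference was 0.17 ± 0.48 (SE; 95% interval -0.98 to 1.33). Its sign turned, to -0.39, once wild-type replicate 1 was left out. Krt1, its type II partner, was dim, at 4.02, 4.49 and 4.63 in mutants and 5.52, 4.50 and 4.49 in wild types. Here wild-type replicate 1 was the highest array, the reverse of its place in Krt10. The difference of -0.46 ± 0.34 became -0.11 without it. The groups overlapped for both genes, and the limma adjusted p was 0.999 for each. Krt77 and Krt2, type II chains of epidermis, differed by 0.28 ± 0.22 and 0.11 ± 0.18 at values of 2.34 to 3.51.

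Keratins of cornea and mucosa were dim in both genotypes, with Krt12 and Krt13 near the bottom of the range. Krt12, the defining type I keratin of corneal epithelium, was at 2.43, 2.87 and 2.60 in mutants and 2.78, 2.37 and 2.55 in wild types. Mutant and wild-type arrays alternated. The difference was 0.07 ± 0.21 (95% interval -0.44 to 0.57), and a second probe set differed by -0.03 ± 0.20. Krt4, a type II mucosal keratin, was at 3.16, 3.10 and 3.39 against 3.15, 3.28 and 3.36, a difference of -0.04 ± 0.18. Krt13, its type I partner, differed by -0.07 ± 0.17 and, on a second probe set, by -0.08 ± 0.23. On 4 of 6 arrays Krt12 lay among the lowest 10% of that array's probe sets. No gain of signal in mutants was seen in these 3 genes, and the 95% intervals of their differences reached no higher than 0.57 on the log2 scale. At such dim levels a gain in RNA can be compressed, so the intervals do not bound it.

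Keratins of the basal layer of stratified epithelia were also dim in both genotypes, with overlapping groups. Together with the keratins induced in wounded epidermis, 6 of 7 had higher means in mutants on the brightest probe set, all but Krt16. The share was 47.8% over all genes and 40.7% over dim genes, and the count was not tested. Krt14, Krt17 and Krt6a each had a further probe set that was lower in mutants, while another of Krt6a was higher. The 95% intervals of the differences reached 0.74 for Krt14 and 0.94 for Krt15. Krt5, the type II chain of basal cells, was at 4.23, 4.09 and 3.82 in mutants and 3.96, 4.04 and 4.06 in wild types, a difference of 0.03 ± 0.19 (95% interval -0.42 to 0.47). The mutant arrays lay on both sides of the wild types. Krt14, its type I partner, was at 3.13, 3.40 and 3.50 against 3.04, 3.17 and 2.95, a difference of 0.29 ± 0.19, but its other probe sets differed by -0.22 ± 0.19 and -0.15 ± 0.21. Krt15, a type I keratin of basal and stem-like cells including those of the limbus, was at 3.72, 3.04 and 3.78 against 3.32, 2.89 and 3.56, a difference of 0.25 ± 0.29 with overlapping groups.

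Of the keratins induced in wounded or proliferating epidermis, Krt16 had the lowest p of the family. It was at 2.83, 2.54 and 2.74 in mutants and 3.36, 3.05 and 3.08 in wild types, each mutant below each wild type. The log2 difference was -0.46 ± 0.19, with a limma unadjusted p of 0.0474 and adjusted p of 0.999; the exact permutation p (two-sided) was 0.1, the smallest that 3 arrays against 3 can give. Krt16 was dim on every array. Krt17, induced in the same settings, was at 2.43, 3.36 and 2.66 against 2.44, 2.69 and 2.75, with mutant replicate 2 the highest; its difference was 0.19 ± 0.28, and -0.11 ± 0.23 on a second probe set. Krt6a and Krt6b, their type II partners, differed by 0.05 ± 0.17 and 0.11 ± 0.21. Further probe sets of Krt6a gave 0.18 ± 0.17 and -0.24 ± 0.23. Krt6a and Krt6b are near-identical copies, and Krt14, Krt16 and Krt17 close relatives, so their probe sets can share signal.

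**Figure D3:**
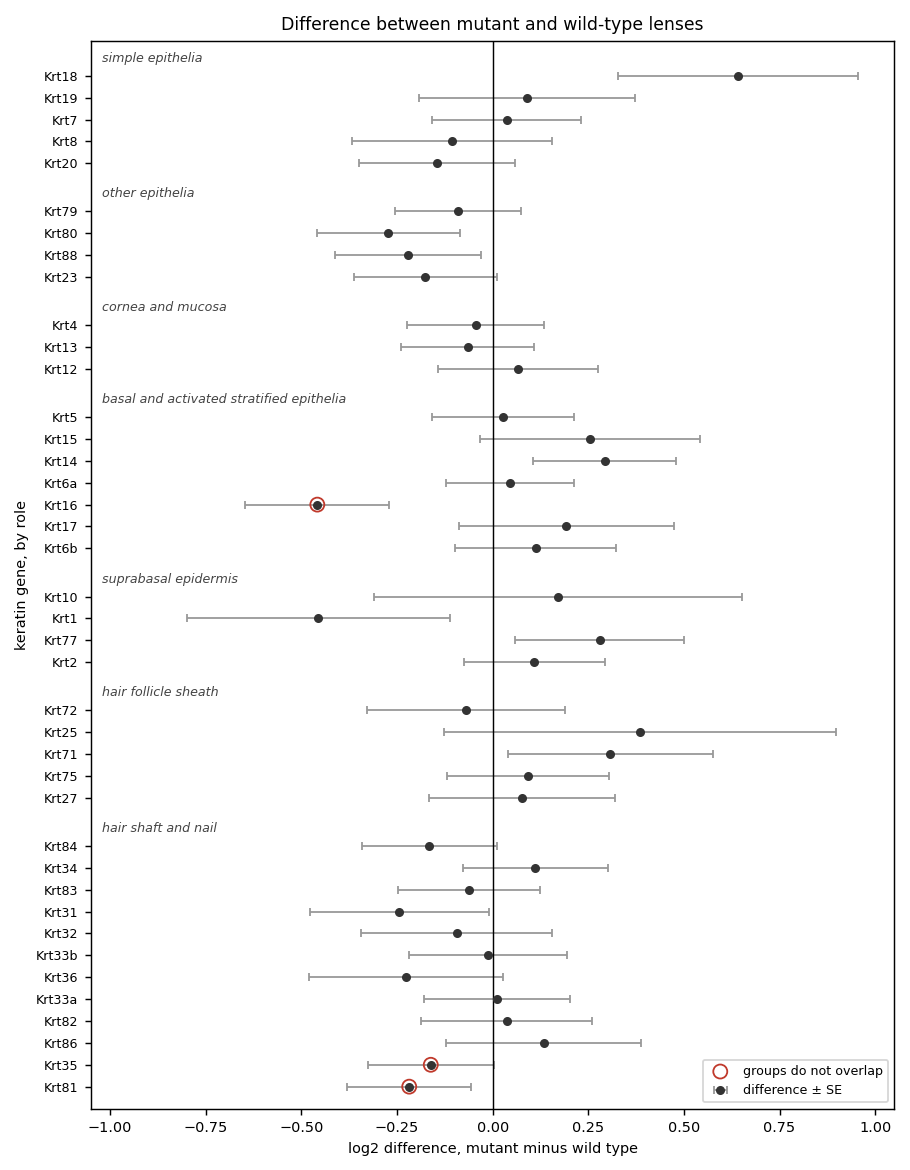
log2 difference, mutant minus wild type (horizontal axis), with the standard error of the limma fit as bars, for each of the 40 keratins (rows, grouped by role); red circles mark genes whose groups do not overlap. Points scatter on both sides of 0 between -0.46 (Krt16) and 0.64 (Krt18), and the circled genes are Krt16, Krt35 and Krt81.

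The keratins of the hair follicle sheath had their highest values on 1 array, mutant replicate 2. Krt25, a type I chain of the inner root sheath, was at 2.63, 4.65 and 3.12 in mutants and 2.91, 2.98 and 3.35 in wild types. Krt71, a type II chain of the same layer, was at 2.94, 3.76 and 3.11 against 2.98, 3.15 and 2.76. In both, mutant replicate 2 stood above all other arrays. It was also the highest array for Krt27 (3.04, others 2.31 to 2.63), Krt72 (3.86, others 3.04 to 3.66) and Krt75, a keratin of the companion layer (3.02, others 2.44 to 2.76), which makes 5 of 5. Over all dim genes 15.9% were highest on that array. Trichohyalin (Tchh), the granule protein of the inner root sheath and not a keratin, was at 4.10 there and at 2.25 to 2.73 on the others. All 6 genes were below the median probe set on every array. This grouping was made after the values were seen and was not tested.

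The sheath differences depended on that array. With all arrays Krt25 differed by 0.38 ± 0.51 and Krt71 by 0.31 ± 0.27, and without mutant replicate 2 by -0.21 and 0.06. Krt27, Krt75 and Krt72 went from 0.08, 0.09 and -0.07 to -0.15, -0.06 and -0.29. Mutant replicate 2 also had the highest signal of macrophage markers, with summed intensities over 4 genes of 842 there and 118 to 302 on the other arrays. Csf1r made up 719 of the 842. All 4 had higher means in mutants, as did 47.8% of all genes. Ptprc and Cd68 were apart with mutants higher, where 8.8% of all genes were apart in either direction. Their part in the sheath pattern was not tested. Suprabasal epidermis markers had a sum over 5 genes of 118 there and 113 to 160 on the others. Krt10 made up 62.7 of that 118, and of the rest loricrin (Lor) was highest on mutant replicate 2, at a log2 level of 3.80 against 2.80 to 3.70. Krt1, Ivl and Flg were not highest there. They were at 4.49, 3.69 and 2.51 on mutant replicate 2 and reached 5.52, 4.25 and 2.81 on other arrays. Of 27 corneal and surface ectoderm genes other than keratins, 8 were highest on that array. Of 33 hair genes other than keratins, most of them keratin-associated proteins of the hair shaft, 7 were highest on mutant replicate 2 and 9 each on mutant replicate 3 and wild-type replicate 1. Tchh is from this list, which was added after the values were seen, and other members went the other way. Gata3 (5.66, others 6.45 to 7.25) and Foxn1 (3.01, others 3.06 to 3.86) were lowest on mutant replicate 2. Padi3 was at 2.80 there and reached 2.91 on other arrays.

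**Figure D4:**
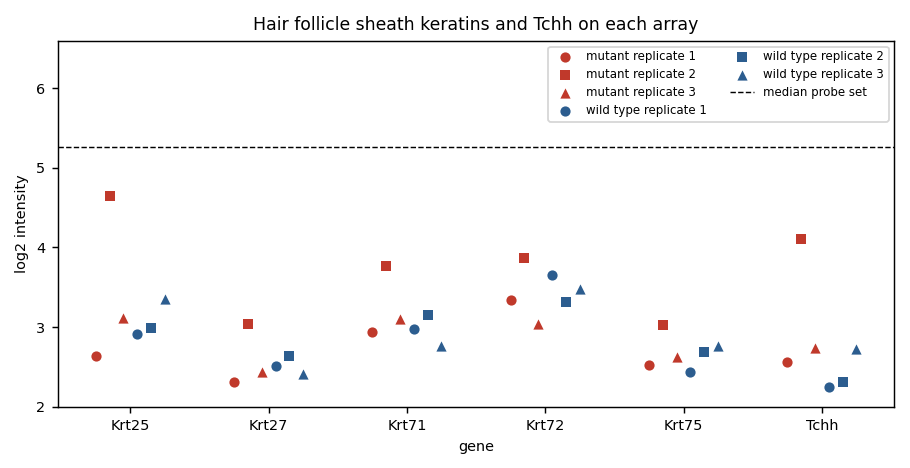
log2 intensity (vertical axis) of the 5 hair follicle sheath keratins and of trichohyalin (Tchh) on each array, mutants in red and wild types in blue, a marker shape per replicate number, with the median probe set as a dashed line. Mutant replicate 2 (red square) is the highest array for each of the 6 genes, and all points lie below the line.

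Keratins of the hair shaft and nail were dim throughout. The 12 genes, Krt31 to Krt36 (type I) and Krt81 to Krt86 (type II, without Krt85), had values of 2.41 to 3.73 on all arrays, with 4 higher and 8 lower in mutants and a median difference of -0.08. The largest difference was that of Krt31, at -0.24 ± 0.23. Krt81 was at 2.65, 2.66 and 2.54 in mutants and 2.85, 2.81 and 2.84 in wild types, and Krt35 at 2.69, 2.75 and 2.68 against 2.85, 2.79 and 2.97. Each mutant was below each wild type, by a difference of -0.22 ± 0.16 for Krt81 and -0.16 ± 0.16 for Krt35. Neither difference passed the limma test (adjusted p of 0.999).

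The remaining epithelial keratins had values of 2.45 to 3.34. Krt80, a type II chain of several epithelia, differed by -0.27 ± 0.19, Krt88 by -0.22 ± 0.19, Krt23 by -0.18 ± 0.19 and Krt79 by -0.09 ± 0.16. All 4 had lower means in mutants, with overlapping groups. Between the filament types there was no clear split: 11 of 20 type I and 10 of 19 type II keratins had higher values in mutants, with median differences of 0.04 and 0.03.

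Where a keratin had more than 1 probe set, these often disagreed in sign. Of 6 such genes, 5 (Krt6a, Krt8, Krt12, Krt14 and Krt17) had probe sets with differences on both sides of 0, and Krt13 had both below it. The spread within a gene, from -0.22 to 0.29 in Krt14, was wider than the difference between genotypes of every keratin other than Krt18.

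Other intermediate filament genes and the proteins that anchor filaments were read from the same fit, as a list of 29 genes of which 26 were measured. None passed the limma test (0 of 26), 11 were higher and 15 lower in mutants, with a median difference of -0.13, and 15 were above the median probe set. At an unadjusted p under 0.05 there were 3 (Ina, Lmnb1 and Bfsp1), or 11.5%, against 3.85% of all genes, and the groups did not overlap for 5 (19.2%), against 8.8%. Of these 5, mutants were higher for 4 and lower for Bfsp1. Bfsp1 was at 11.92, 12.30 and 12.21 in mutants and 12.95, 12.46 and 12.97 in wild types. Its difference was -0.65 ± 0.22, with a limma adjusted p of 0.999. Vimentin (Vim), the main filament protein of lens epithelium, was at 12.76, 12.79 and 12.73 in mutants and 12.94, 12.77 and 12.92 in wild types. Its difference was -0.11 ± 0.16. The genes of lowest p were alpha-internexin (Ina), a neuronal filament protein, at 9.24, 8.90 and 8.40 against 6.97, 7.21 and 7.66, and lamin B1 (Lmnb1), of the nuclear lamina, at 11.83, 11.55 and 11.59 against 10.36, 11.17 and 11.02. Each mutant was above each wild type for both, with differences of 1.57 ± 0.29 and 0.81 ± 0.26 and limma adjusted p of 0.928 and 0.999. Markers of retina and pigment epithelium were also higher in mutants, with summed intensities over 6 genes of 533 to 629 against 310.2 to 403; 4 of the 6 were above the median probe set, Dct and Pmel were apart with mutants higher, and the dim Rpe65 was apart with mutants lower. Their part in the values of Ina was not tested. The linkers of keratin to desmosomes and hemidesmosomes showed mixed levels. Desmoplakin (Dsp), Pkp3, Itgb4 and Col17a1 were dim in both groups, while plectin (Plec), dystonin (Dst) and Itga6 had means above 10 in each group, with differences of -0.24 ± 0.27, -0.18 ± 0.19 and 0.23 ± 0.28.

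Corneal and surface ectoderm genes other than keratins were mostly dim as well. Of 32 listed genes 27 were measured, 6 were above the median probe set, and none passed the limma test (0 of 27); 2 reached an unadjusted p under 0.05 (7.41%, against 3.85% of all genes), and 11 were higher and 16 lower in mutants, with a median difference of -0.04. Aldh3a1, the abundant crystallin-like enzyme of adult mouse cornea, was at 2.54, 3.07 and 2.71 in mutants and 2.48, 2.69 and 2.61 in wild types. Its level in newborn cornea was not measured here. Trp63, the transcription factor of stratified epithelia, was at 3.31, 3.19 and 3.36 against 3.46, 2.71 and 2.98. Their differences were 0.17 ± 0.21 and 0.24 ± 0.24, with overlapping groups. The genes of lowest p were the connexin Gjb6, with a mutant mean of 2.63 ± 0.28 and a wild-type mean of 3.31 ± 0.17 (SD, n = 3), and the splicing regulator Esrp1, at 5.70 ± 0.62 and 4.73 ± 0.33, with differences of -0.68 ± 0.22 and 0.96 ± 0.36 and a limma adjusted p of 0.999 for both. The bright members were Fabp5, Tkt, Gsta4, Perp, Lgals3 and Klf4.

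Summed intensities of the epithelial marker lists overlapped between the genotypes. Of the 7 corneal and surface epithelium markers only Perp was above the median probe set, at 671 to 1201 in mutants and 390.1 to 1432 in wild types. The 6 others summed to 64.0 to 69.4 and 59.9 to 70.9. Gene by gene, 6 of the 7 had higher means in mutants on the brightest probe set, all but Sfn. The share was 47.8% over all genes and 40.7% over dim genes. Krt5 and Krt14 were also in the basal count above, and Krt12 and Krt14 had further probe sets that were lower in mutants. Their median difference was 0.09. The groups overlapped for each gene, and the limma test called none. The 4 conjunctival markers, all dim, summed to 32.4 to 36.4 and 29.9 to 35.9, and the 5 suprabasal epidermis markers to 118 to 139 and 113 to 160.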

How the data were processed

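Total RNA of newborn lenses was amplified and hybridised to 1 oligonucleotide array per sample. The deposited values are probe set intensities on a linear scale; per the submitters' processing notes the authors ran RMA (background correction, quantile normalisation, probe summary; no version given), and the step back to a linear scale and the genome build are not given in the sources used here. Here log2 was taken with no pseudocount. Of 22690 probe sets, 64 controls were left out. Names came from the platform annotation of 2016; all 40 keratin symbols matched RefSeq. A probe set shared by Krt14 and Krt17 was not used. limma 3.58.1 in R 4.3.3 fitted mutant against wild type over 22626 probe sets, with two-sided p-values adjusted by Benjamini-Hochberg over all of them; the fit was tested on simulated data. No list test was run. The keratins, roles, lists and tests were chosen with earlier results of these data known. Named with array values were keratins above the median probe set, those whose groups did not overlap or had an unadjusted p under 0.05, fixed markers of each epithelium and, after their values were seen, the sheath keratins; 2 genes of lowest p came from each other list. Alternatives were a replicate block, median centring, quantile normalisation, an offset of 16, leaving out dim probe sets or arrays, a trended prior, array weights, a threshold of 0.1 and averaging all probe sets of each gene.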

Additional observations from a re-analysis of the deposited data

How the results depend on the processing

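No keratin was called under any of the 15 alternatives or at a threshold of 0.1, and the lowest adjusted p of a named keratin was 0.289. The same holds for the filament and corneal lists wherever they were refitted. Over all probe sets 0 were called, except 7 with array weights. The count of keratins whose groups do not overlap was 3 with all arrays, 5 with quantile normalisation, 0 with dim probe sets left out, 4 to 10 with 1 array left out and 13 without both wild-type replicate 1 and mutant replicate 2; fewer arrays overlap less by construction. With dim probe sets left out Krt10 was the 1 keratin remaining, so 1 was higher and the median difference was 0.17. Otherwise the median difference moved by less than 0.13, the SD between replicates of the median keratin level of an array. With 1 array left out 16 to 22 keratins were higher, at medians of -0.05 to 0.04. With 1 array left out 1 to 2 keratins were above the median probe set, 2 without wild-type replicate 2. Correlations of same-numbered deviations were -0.07, -0.26 and -0.16. With 3 arrays per group, and no comparison with differently numbered arrays, these cannot decide whether the replicate numbers pair the arrays. The replicate block called 0 probe sets and 0 keratins. Of 225 values of named keratins under alternatives, 25 changed sign, in each case from or to a difference within 1 standard error of 0. In 3 the new value exceeded its own standard error: Krt10 at -0.39 ± 0.22 without wild-type replicate 1 and -0.25 ± 0.23 without both arrays, and Krt8 at 0.24 ± 0.23 without both. Levels near the bottom of the array limit what can be read from all keratins other than Krt10, Krt18 and Krt1.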
